A study of Mus musculus with 9 samples.

Results

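Collagen chain genes were examined in 3 transplantable mouse mammary tumour lines. A gene was a member when its array feature carried a single symbol of the form Col, number, a, number (such as Col1a1). The rule found 46 features and 44 genes of the 19938 genes measured. Col6a5 and Col6a6 had 2 features each, and the feature with the higher mean over the 9 arrays stood for the gene. The genes were grouped by the kind of assembly their chains form, with 11 fibrillar, 6 basement membrane, 6 beaded filament (type VI), 9 fibril-associated, 4 transmembrane, 3 network, 2 multiplexin, 1 anchoring fibril and 2 unclassed members.

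Total RNA came from snap-frozen mammary tumours in female mice (strain given as FVB/N), with 3 samples each of the lines NDL, Met1 and SSM2, each run on its own Mouse Gene 1.0 ST array (Affymetrix). The labels give each line by its name, and the title of the series adds that the study concerns an ErbB2 model. As background, NDL is known to carry an activated ErbB2 (neu) transgene and Met1 a polyoma middle T transgene, both driven by the mammary tumour virus promoter, and SSM2 is known as a hormone receptor-positive line. Cells of each line had been propagated in culture and were injected on both sides into fat pads that had not been cleared of host mammary epithelium, in FVB/NJ hosts aged 6 to 8 weeks, and tumours were taken at a width of 5 to 10 mm. The labels name no other treatment. Each group is therefore 1 cell line, and the tumours also hold host stroma, vessels and epithelium. Whether the 3 samples of a line are from different animals or tumours is not stated. Each p-value sets a difference between lines against the spread of samples within lines, estimated over all 3 lines. That spread may be technical. In such bulk RNA, fewer cells of a type and less RNA per cell cannot be told apart, and neither can RNA of tumour cells and RNA of host cells.

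As background, collagen chains wind together as trimers into a triple helix with glycine at regular steps along each chain. Fibrillar collagens such as type I and III give stroma its tensile strength and in tumours come mainly from fibroblasts, and fibril-associated collagens such as type IX and XII decorate the fibril surface. Type IV chains build the sheet of the basement membrane under epithelium and around vessels and myoepithelium, type VI forms beaded microfilaments between stroma and basement membrane, and the transmembrane type XVII anchors basal epithelial cells to the basement membrane.

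Values are the authors' log2 signals from RMA, a method that corrects background, equalises the distributions of the arrays and summarises the probes of a feature, so 1 unit is a 2-fold change in signal. Signals of different genes come from different probes and are not compared with each other. The mean signals of the 44 collagens ranged upward from 5.27, all above the 25th percentile of all genes (4.91), and 32 lay above the median (6.45). The 3 measured Y-linked transcripts, a background reading for their own probes in female hosts, lay between 2.61 and 3.85. Background differs between probes, so these values set no floor for the collagen probes. Whether the dimmer collagens were above background was not tested. Upper quartiles of the gene signals were 7.85 and 7.84 for NDL replicates 1 and 2, 8.09 for NDL replicate 3, and between 7.98 and 8.08 for Met1 and SSM2 arrays. Simple epithelial markers had list means from 10.92 up to 10.95 in NDL, from 6.29 up to 8.09 in Met1 and from 11.02 up to 11.48 in SSM2, lowest in Met1, where all 6 were lower than in NDL and in SSM2 in limma. The largest differences were those of the keratins Krt8 and Krt7 and of Cldn7, a tight junction claudin, at 4.24, 3.59 and 4.02 for NDL minus Met1 and -5.01, -4.40 and -3.52 for Met1 minus SSM2. The number of arrays, 3 per line, limits the precision. Differences between lines are given in log2 units as the estimate ± its SE. A gene was called when its adjusted p in limma (moderated test, Benjamini-Hochberg over all 19938 genes) was under 0.05.

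By the calls, NDL tumours had the highest signal for the 3 type IX chains, Col4a6 and Col20a1. Met1 tumours had the lowest for Col1a2, Col3a1, Col5a2, Col8a1 and Col15a1 and the highest for Col6a1, Col6a2, Col16a1 and Col18a1. SSM2 tumours had the highest for Col17a1 and the lowest for Col11a1, Col4a5, Col9a1 and Col9a3. For Col1a2, Col3a1, Col8a1 and Col20a1, both calls behind the pattern ended under some alternatives. In limma, 14 of 44 collagens were higher and 4 lower in NDL than in Met1 (31.8% and 9.09%), against 8.88% and 10.2% of all genes. Between NDL and SSM2, 9 were higher and 1 lower in NDL (20.5% and 2.27%), against 9.35% and 7.52% of all genes. Between Met1 and SSM2, 8 were higher and 7 lower in Met1 (18.2% and 15.9%), against 7.1% and 4.71%. The 14 higher members between NDL and Met1 became 9 without NDL replicate 1 and 24 without NDL replicate 3, the 9 between NDL and SSM2 became 22 without NDL replicate 3, and the 7 lower members between Met1 and SSM2 became 3 without Met1 replicate 1, 4 without Met1 replicate 3, and 4 without SSM2 replicate 1 or 2. With NDL replicate 3 as the only NDL array, 5 members were higher and 2 lower in NDL than in Met1, and 5 were higher in NDL than in SSM2. Of the 43 calls, 23 held under every alternative that tested them, 20 for all but Col4a6. These were the calls of type IX, Col4a6, Col6a1, Col6a2, Col11a1 and Col17a1 in every comparison that called them. The rest were those of Col4a5, Col5a2, Col15a1, Col16a1 and Col18a1 between Met1 and SSM2. Some alternatives could hardly end a call. Filtering at the 25th percentile of signal kept all 44 members, and averaging a gene's features left the values of the called collagens unchanged. Dropping an array of the line outside a comparison left its estimate unchanged and altered only the SE and adjustment. With NDL replicate 3 as the only NDL array 18 of the 43 calls ended, among them all NDL to Met1 calls of fibrillar collagens (adjusted p from 0.121 to 0.246) and of Col4a1, Col4a2 and Col16a1 (adjusted p from 0.106 to 0.177), and the NDL to SSM2 calls of Col27a1 and Col4a5 (adjusted p = 0.17 and 0.126).

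The background depends on signal, since dim genes are seldom called. Among genes with a mean signal above the median, 16 of 32 collagens (50%) were called between NDL and Met1, against 30.4% of all such genes. The same figures were 8 of 32 (25%) against 25.9% between NDL and SSM2, so the share of collagens there was at the background, and 15 of 32 (46.9%) against 18.9% between Met1 and SSM2. The median log2 difference over the 44 collagens was 0.27 for NDL minus Met1, 0.34 for NDL minus SSM2 and 0.07 for Met1 minus SSM2, against 0.06, 0.09 and 0.04 over all genes. The 3 comparisons share arrays in pairs and are not independent.

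Calls in both comparisons of a line gave its extremes. NDL was called highest for 5 of 44 members (11.4%, against 5.13% of all genes) and lowest for 0 (3.59% of all genes), a count that was 0 at an unadjusted p under 0.05. Met1 was lowest for 5 (11.4%, against 2.18%) and highest for 4 (9.09%, against 4.09%). SSM2 was lowest for 4 (9.09%, against 2.26%) and highest for 1 (2.27%, against 1.91%). In all, 24 members (54.5%) were called in at least 1 comparison, against 28.7% of all genes.

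**Figure D1:**
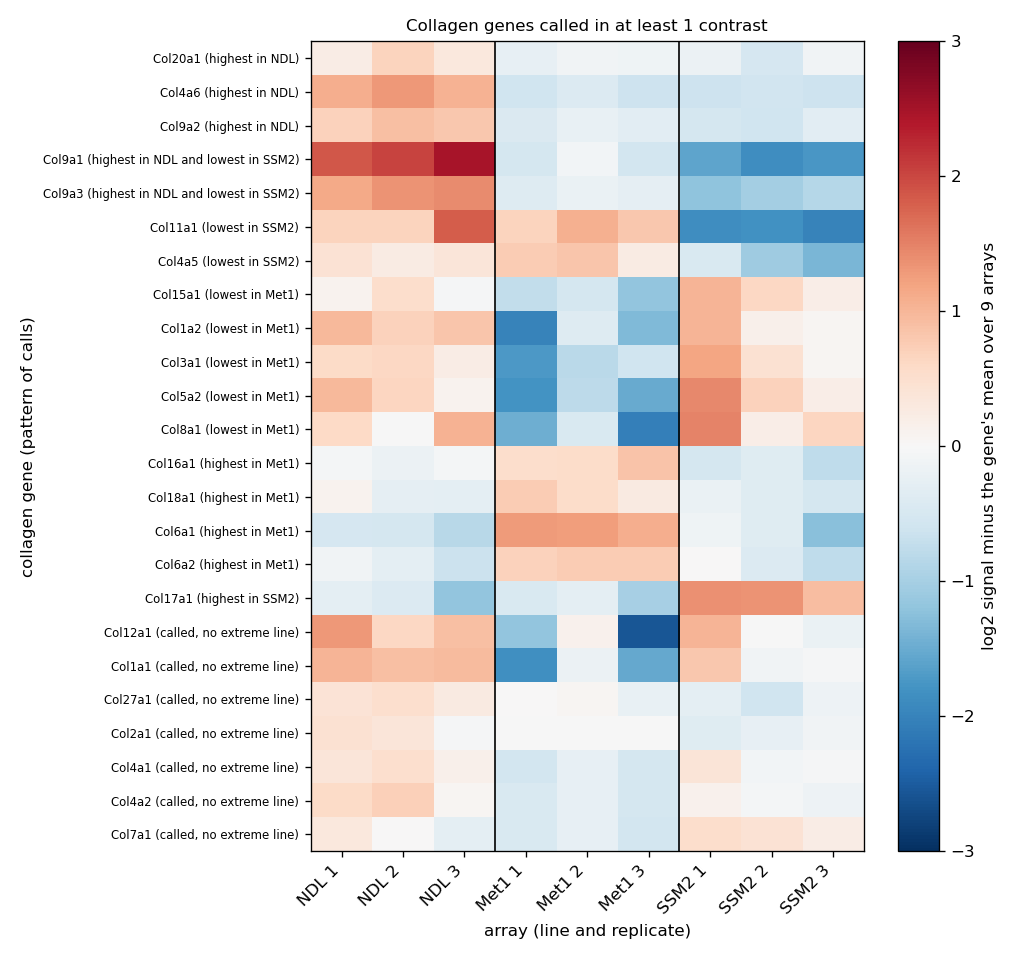
Deviation of each array's log2 signal from the gene's own mean over the 9 arrays (colour) for the 24 collagen genes called in at least 1 comparison, with arrays of NDL, Met1 and SSM2 from left to right and the pattern of calls beside each gene. Type IX chains are above their mean on all NDL arrays, and Col6a1 and Col6a2 on all Met1 arrays.

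Of the 11 fibrillar collagens, 4 were higher in NDL than in Met1, 3 higher in NDL than in SSM2, and 1 higher and 3 lower in Met1 than in SSM2. Col1a1 (feature 10380419), the alpha 1 chain of type I collagen, stood at 12.23, 12.13 and 12.16 in NDL, 9.38, 11.05 and 9.69 in Met1 and 12.03, 11.13 and 11.19 in SSM2 (log2 signal, replicates 1 to 3). NDL was 4.39-fold above Met1 (2.14 ± 0.42 log2 units, adjusted p = 0.00846), with no overlap of arrays. All Met1 arrays also lay below all SSM2 arrays, but Met1 did not pass against SSM2 (log2 difference -1.41, adjusted p = 0.0657), nor did NDL (log2 difference 0.73, 95% interval -0.22 to 1.68, adjusted p = 0.242). Without Met1 replicate 2, the highest Met1 array, Met1 minus SSM2 was -1.92 and passed (adjusted p = 0.00723). With arrays weighted by their fit, the NDL to Met1 call ended (adjusted p = 0.0782).

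Col1a2 (feature 10536220), the alpha 2 chain that joins 2 alpha 1 chains in type I collagen, stood at 11.91, 11.63 and 11.77 in NDL, 8.92, 10.54 and 9.61 in Met1 and 11.95, 11.10 and 10.98 in SSM2. As for Col1a1, replicate 2 was the highest Met1 array and replicate 1 the highest SSM2 array, while SSM2 replicates 2 and 3 stood in the opposite order. NDL was 4.22-fold above Met1 (2.08 ± 0.40 log2 units, adjusted p = 0.00783), and Met1 lay 3.15-fold below SSM2 (-1.66 ± 0.40 log2 units, adjusted p = 0.0297). NDL and SSM2 overlapped (log2 difference 0.42, 95% interval -0.49 to 1.33, adjusted p = 0.465). The Met1 to SSM2 call did not hold when 1 of 5 arrays was dropped, namely NDL replicate 1, Met1 replicate 1 or 3, or SSM2 replicate 1 or 2 (adjusted p from 0.0556 to 0.0944), and in the fit of those lines alone (adjusted p = 0.0786). With array weights both calls ended (adjusted p = 0.0673 for NDL and 0.0549 for SSM2).

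The 250 bases upstream of the RefSeq start of Col1a2 are shown because it is the type I chain called lowest in Met1 (GRCm38.p6, chr6:4505368-4505617, plus strand, 5′ to 3′). Col1a1 was also below SSM2 on all Met1 arrays without being called there, and the difference between the chains was not tested. Capitals mark CCAAT and GGGCGG, the CCAAT box and GC box motifs searched on both strands.
Col1a2: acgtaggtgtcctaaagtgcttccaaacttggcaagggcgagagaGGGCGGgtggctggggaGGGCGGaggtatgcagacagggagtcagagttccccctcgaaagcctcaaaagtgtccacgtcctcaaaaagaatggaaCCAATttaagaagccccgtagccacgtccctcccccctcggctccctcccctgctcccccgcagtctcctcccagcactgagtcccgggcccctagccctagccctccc
The window holds 1 CCAAT and 2 GGGCGG, motifs found in 33.8% and 32.7% of the 32851 upstream windows in the table.

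Col3a1 (feature 10346015), the chain of type III collagen that co-assembles with type I in soft tissue, stood at 10.90, 10.93 and 10.53 in NDL, 8.58, 9.51 and 9.72 in Met1 and 11.48, 10.76 and 10.37 in SSM2. All Met1 arrays lay below all others, while NDL and SSM2 overlapped. NDL was 2.86-fold above Met1 (1.51 ± 0.35 log2 units, adjusted p = 0.0178) and Met1 3.03-fold below SSM2 (-1.60 ± 0.35 log2 units, adjusted p = 0.0201). The NDL to Met1 call ended without NDL replicate 1 (adjusted p = 0.0689) or 2 (adjusted p = 0.0593), and the Met1 to SSM2 call without Met1 replicate 1 (adjusted p = 0.0579), without SSM2 replicate 2 (adjusted p = 0.0543) and in the fit of those lines alone (adjusted p = 0.057).

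Col5a2 (feature 10354309), a type V chain that helps start and limit type I fibrils, stood at 9.28, 8.96 and 8.42 in NDL, 6.51, 7.53 and 6.81 in Met1 and 9.76, 9.003 and 8.52 in SSM2. NDL was 3.83-fold above Met1 (1.94 ± 0.38 log2 units, adjusted p = 0.00843), and Met1 lay 4.41-fold below SSM2 (-2.14 ± 0.38 log2 units, adjusted p = 0.00758). All Met1 arrays lay below all others, and NDL and SSM2 overlapped. Both calls held in all 9 fits with 1 array left out. Its type V partner chains were not called: Col5a1 averaged 8.09 ± 0.25 in NDL, 7.84 ± 0.35 in Met1 and 7.65 ± 0.20 in SSM2, and Col5a3 7.001 ± 0.15 in NDL, 6.75 ± 0.11 in Met1 and 7.08 ± 0.14 in SSM2 (mean ± SD, n = 3). The difference between chains was not tested.

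Col11a1 (feature 10495449), a type XI chain of thin cartilage fibrils that is also made in activated stroma, ran a different course. It stood at 9.13, 9.13 and 10.30 in NDL, 9.13, 9.55 and 9.27 in Met1 and 6.61, 6.67 and 6.47 in SSM2. The deposited value was identical to 6 decimals (9.131402) on NDL replicates 1 and 2 and Met1 replicate 1. Values shared between lines also occurred for Col17a1 (6.703509 on NDL replicate 1 and Met1 replicate 2). The same held for Col4a5 (8.147433 on NDL replicate 2 and Met1 replicate 3) and Col20a1 (6.332923 on Met1 replicate 2 and SSM2 replicate 3). The cause of these equal values was not tested. SSM2 lay far below both other lines, which overlapped. NDL was 7.66-fold above SSM2 (2.94 ± 0.29 log2 units, adjusted p = 0.000392) and Met1 6.65-fold above SSM2 (2.73 ± 0.29 log2 units, adjusted p = 0.000799), while NDL and Met1 did not pass (log2 difference 0.20, 95% interval -0.47 to 0.88, adjusted p = 0.666). NDL replicate 3 was the highest array, and both calls held in all 20 alternatives. The partner chain Col11a2 averaged 7.04 ± 0.18 in NDL, 6.80 ± 0.01 in Met1 and 6.71 ± 0.08 in SSM2 and was not called.

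The remaining called fibrillar members differed little. Col27a1, a fibrillar chain of cartilage, stood at 7.64, 7.75 and 7.50 in NDL, 7.25, 7.31 and 7.03 in Met1 and 6.96, 6.65 and 7.09 in SSM2, and NDL was 1.66-fold above SSM2 (0.73 ± 0.14 log2 units, adjusted p = 0.0102). All NDL arrays lay above all others for this gene. Col2a1, the main chain of cartilage fibrils, had the smallest difference among the 7 called fibrillar members and is named here after its values were seen. It stood at 7.69, 7.59 and 7.19 in NDL, 7.21, 7.21 and 7.21 in Met1 and 6.86, 6.98 and 7.13 in SSM2, and its call between NDL and SSM2 (0.50 ± 0.14 log2 units, adjusted p = 0.0442) was lost on dropping any single array other than the third of NDL or of SSM2 (adjusted p from 0.0699 to 0.146), with an intensity trend (adjusted p = 0.0656), and after centring on equal medians (adjusted p = 0.06) or quantile normalisation (adjusted p = 0.0565). Its NDL arrays lay above all SSM2 arrays and overlapped Met1. The deposited Col2a1 value was identical to 6 decimals on the 3 Met1 arrays, as it was for Col4a3 and Col4a4 and for 401 genes in all (2.01%). For Col2a1 a Met1 SD of 0 thus entered the variance shared by the 3 lines, on which the NDL to SSM2 call rests. In the fit of NDL and SSM2 alone the estimate was the same, 0.50, and the call ended (adjusted p = 0.127). Col24a1, with line means between 5.83 and 6.17, was not called.

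**Figure D2:**
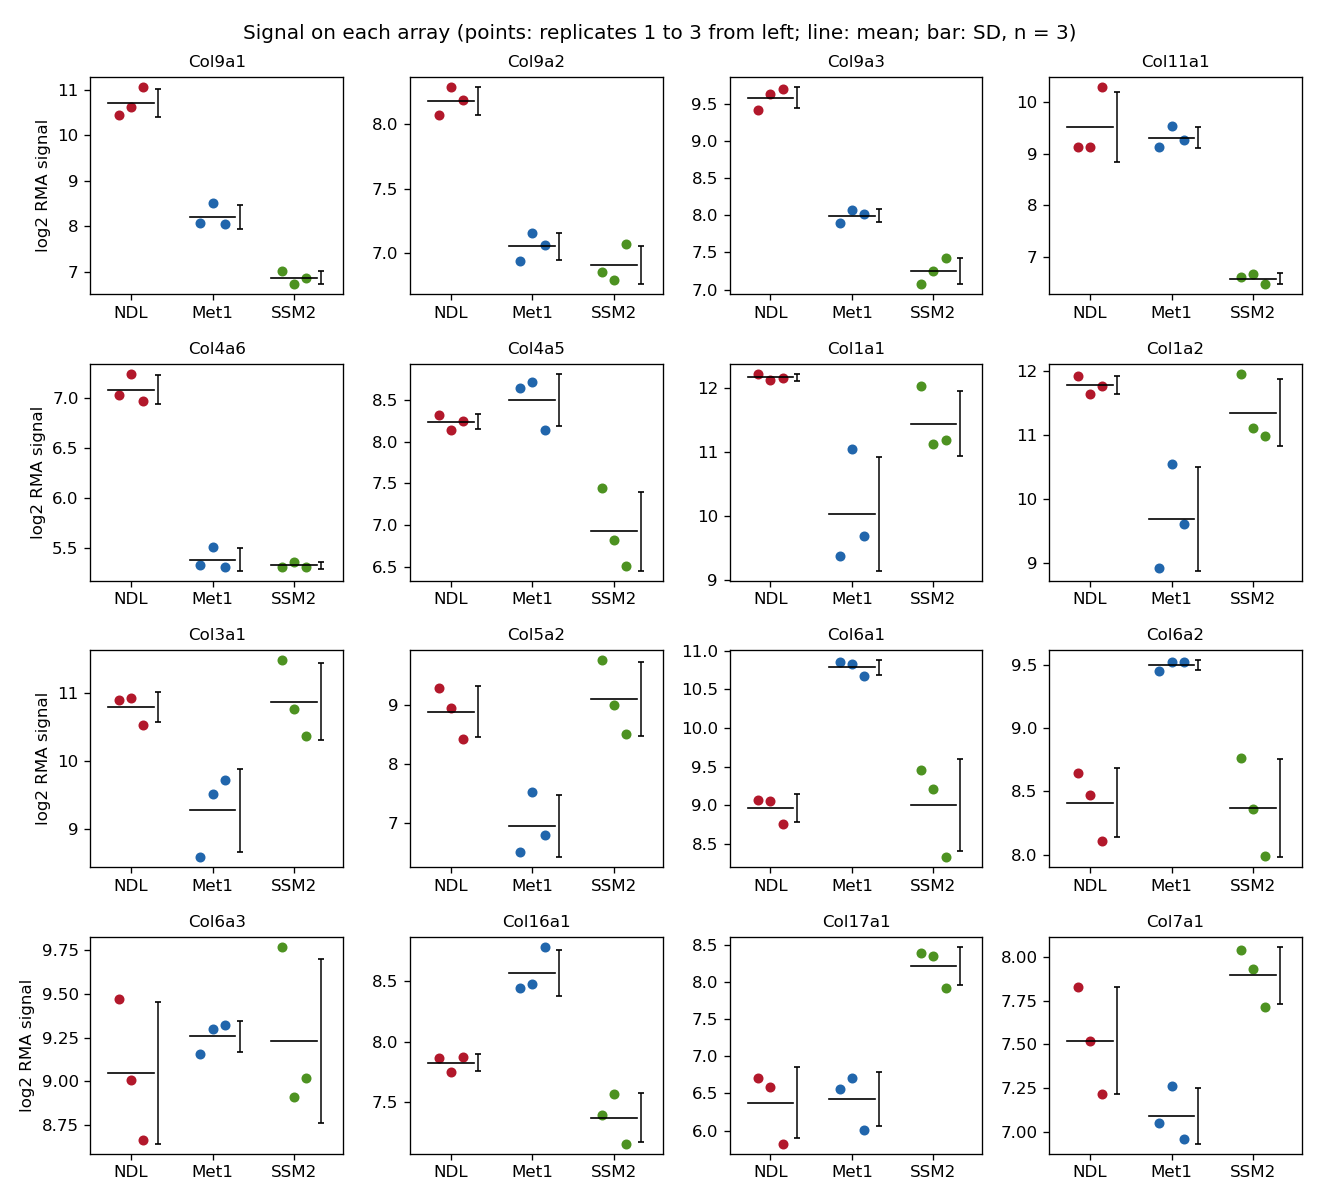
Log2 RMA signal of 16 collagen genes on each array, with NDL, Met1 and SSM2 from left to right, points for replicates 1 to 3, a line for the mean and a bar for the SD (n = 3). The vertical scale differs between panels and does not start at 0; the Met1 arrays spread over 1.67 units for Col1a1 and 0.17 units for Col6a1.

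Of the 9 fibril-associated collagens, 5 were higher and 1 lower in NDL than in Met1, 4 higher in NDL than in SSM2, and 3 higher in Met1 than in SSM2. In NDL tumours all 3 type IX chains were above both other lines on every array. Type IX collagen is a heterotrimer of the chains alpha 1, alpha 2 and alpha 3, known from the surface of type II collagen fibrils in cartilage. Col9a1 (feature 10345101) stood at 10.45, 10.61 and 11.06 in NDL, 8.06, 8.51 and 8.06 in Met1 and 7.02, 6.74 and 6.86 in SSM2. The lines did not overlap: NDL was 5.65-fold above Met1 (2.50 ± 0.19 log2 units, adjusted p = 9.74e-05) and 14.3-fold above SSM2 (3.84 ± 0.19 log2 units, adjusted p = 1.23e-05), and Met1 was 2.53-fold above SSM2 (1.34 ± 0.19 log2 units, adjusted p = 0.00286).

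Col9a3 (feature 10479423) had the same order of lines. Its signal was 9.42, 9.63 and 9.69 in NDL, 7.90, 8.07 and 8.01 in Met1 and 7.07, 7.25 and 7.43 in SSM2. NDL was 3.01-fold above Met1 (1.59 ± 0.13 log2 units, adjusted p = 0.000115) and 5.03-fold above SSM2 (2.33 ± 0.13 log2 units, adjusted p = 1.68e-05), and Met1 was 1.67-fold above SSM2 (0.74 ± 0.13 log2 units, adjusted p = 0.00626). Again no arrays of different lines overlapped. Col9a2 (feature 10507742) stood at 8.07, 8.29 and 8.19 in NDL, 6.94, 7.15 and 7.06 in Met1 and 6.85, 6.79 and 7.07 in SSM2. NDL was 2.19-fold above Met1 (1.13 ± 0.12 log2 units, adjusted p = 0.000384) and 2.43-fold above SSM2 (1.28 ± 0.12 log2 units, adjusted p = 0.00022), while Met1 and SSM2 overlapped (log2 difference 0.15, 95% interval -0.12 to 0.41, adjusted p = 0.549). The 8 type IX calls held under all 20 alternatives, some of which could hardly end a call, as described above. Of other cartilage collagens, Col10a1, the chain of hypertrophic cartilage, averaged 5.41 ± 0.31 in NDL, 5.64 ± 0.20 in Met1 and 5.68 ± 0.27 in SSM2 and was not called.

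The upstream windows of Col9a1 and Col9a2 are shown because these genes encode chains of 1 trimer, were called highest in NDL and lie on different chromosomes. Col9a1 has 2 RefSeq starts, known to give a long and a short form, and the array does not tell which was used. Each window is the 250 bases before the start (RefSeq, GRCm38.p6, 5′ to 3′ on the gene's strand). Capitals mark matches on either strand to ACAANG (a core of SOX-type sites, searched because Sox9 is known to act on cartilage collagen genes), CCAAT (the CCAAT box), TATAAA (the TATA box) and GGGCGG (the GC box), and no matches to different motifs overlapped in the windows of these genes.
Col9a1, upstream start, chr1:24177360-24177609, plus strand: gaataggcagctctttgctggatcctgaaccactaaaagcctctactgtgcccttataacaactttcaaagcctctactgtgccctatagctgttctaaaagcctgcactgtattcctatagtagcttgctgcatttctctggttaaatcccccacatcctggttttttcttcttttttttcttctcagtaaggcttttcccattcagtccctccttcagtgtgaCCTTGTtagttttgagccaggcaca
Col9a1, downstream start, chr1:24194953-24195202, plus strand: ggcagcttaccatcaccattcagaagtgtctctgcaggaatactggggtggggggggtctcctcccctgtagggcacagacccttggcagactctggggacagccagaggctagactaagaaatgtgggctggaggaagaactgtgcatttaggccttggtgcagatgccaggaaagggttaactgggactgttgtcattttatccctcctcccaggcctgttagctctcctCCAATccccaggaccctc
Col9a2, chr4:121039316-121039565, plus strand: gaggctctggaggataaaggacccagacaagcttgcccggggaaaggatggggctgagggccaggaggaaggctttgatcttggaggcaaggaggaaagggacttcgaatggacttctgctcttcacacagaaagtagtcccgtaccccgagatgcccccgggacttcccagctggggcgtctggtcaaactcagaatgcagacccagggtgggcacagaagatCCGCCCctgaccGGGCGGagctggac
The upstream Col9a1 window holds 1 ACAANG (as CCTTGT, on the opposite strand), the downstream one 1 CCAAT, and the Col9a2 window 2 GGGCGG and no ACAANG. Across the 32851 windows, ACAANG is found in 36.3%, CCAAT in 33.8%, TATAAA in 12.4% and GGGCGG in 32.7%. Among the 38 windows of 35 collagen genes the shares were 26.3%, 34.2%, 13.2% and 57.9%. A match describes the letters and is no evidence of binding.

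Of the other fibril-associated members, Col16a1 (feature 10508533), which links fibrils to other matrix, was highest in Met1, at 7.86, 7.75 and 7.87 in NDL, 8.44, 8.48 and 8.79 in Met1 and 7.39, 7.56 and 7.15 in SSM2. No arrays of different lines overlapped. NDL was 1.68-fold below Met1 (-0.74 ± 0.14 log2 units, adjusted p = 0.00707), Met1 was 2.3-fold above SSM2 (1.20 ± 0.14 log2 units, adjusted p = 0.00113), and NDL minus SSM2 was 0.46 (adjusted p = 0.0578).

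Col12a1 (feature 10595211), which binds type I fibrils, stood at 10.53, 9.85 and 10.13 in NDL, 8.04, 9.36 and 6.66 in Met1 and 10.25, 9.22 and 9.03 in SSM2. The Met1 arrays spanned 2.70 units, with replicate 2 highest as for Col1a1, and lay below all NDL arrays, while SSM2 overlapped both. NDL was 4.45-fold above Met1 (2.15 ± 0.62 log2 units, adjusted p = 0.0431). That call was lost on dropping any NDL array, Met1 replicate 1 or 3, or SSM2 replicate 2 (adjusted p from 0.0594 to 0.144), with array weights (adjusted p = 0.186) and in the fit of those lines alone (adjusted p = 0.0631).

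Col20a1 (feature 10479514) stood at 6.66, 7.11 and 6.76 in NDL, 6.20, 6.33 and 6.30 in Met1 and 6.27, 5.93 and 6.33 in SSM2, and was called higher in NDL than in Met1 (0.56 ± 0.15 log2 units, adjusted p = 0.0336) and SSM2 (0.66 ± 0.15 log2 units, adjusted p = 0.0206). All NDL arrays lay above all others. The first call ended without NDL replicate 2 or any Met1 array (adjusted p from 0.0832 to 0.112), and the second without NDL replicate 2 (adjusted p = 0.0543), without SSM2 replicate 2 (adjusted p = 0.0599) and in the fit of those lines alone (adjusted p = 0.0741). Col14a1, a chain of dense connective tissue, with line means between 7.77 and 8.46, and Col19a1 and Col22a1, with line means between 5.21 and 6.60, were not called.

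Of the 6 basement membrane collagens, 3 were higher in NDL than in Met1, 2 higher in NDL than in SSM2 and 1 higher in Met1 than in SSM2. Col4a6 (feature 10607012), the alpha 6 chain of basement membranes around smooth muscle and some epithelia, was highest in NDL, at 7.03, 7.24 and 6.97 in NDL, 5.33, 5.52 and 5.32 in Met1 and 5.31, 5.37 and 5.31 in SSM2. NDL was 3.24-fold above Met1 (1.69 ± 0.11 log2 units, adjusted p = 4.32e-05) and 3.37-fold above SSM2 (1.75 ± 0.11 log2 units, adjusted p = 3.23e-05), while Met1 and SSM2 overlapped (log2 difference 0.06, 95% interval -0.19 to 0.30). Its means in Met1 and SSM2 lay below the median of all genes. Both calls held in every alternative that tested the gene, and under the filter at the median signal it was not tested.

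Col4a5 (feature 10602105), whose chain assembles with alpha 6 in those membranes, stood at 8.33, 8.15 and 8.25 in NDL, 8.65, 8.72 and 8.15 in Met1 and 7.44, 6.82 and 6.51 in SSM2. SSM2 lay below both other lines, which overlapped. NDL was 2.49-fold above SSM2 (1.31 ± 0.24 log2 units, adjusted p = 0.00809), and Met1 2.99-fold above SSM2 (1.58 ± 0.24 log2 units, adjusted p = 0.00407). NDL minus Met1 was -0.27, 95% interval -0.82 to 0.29 (adjusted p = 0.483). The difference between the Col4a5 and Col4a6 patterns was not tested.

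The starts of Col4a6 and Col4a5 lie 1343 bases apart on the X chromosome and point away from each other, so both upstream windows are shown side by side (250 bases, RefSeq, GRCm38.p6, capitals as above).
Col4a6, chrX:141474077-141474326, minus strand: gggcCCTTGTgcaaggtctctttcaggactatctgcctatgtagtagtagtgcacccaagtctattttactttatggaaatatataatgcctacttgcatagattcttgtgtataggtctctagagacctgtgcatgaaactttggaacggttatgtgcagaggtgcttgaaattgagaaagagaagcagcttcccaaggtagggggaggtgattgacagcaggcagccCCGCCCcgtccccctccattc
Col4a5, chrX:141475169-141475418, plus strand: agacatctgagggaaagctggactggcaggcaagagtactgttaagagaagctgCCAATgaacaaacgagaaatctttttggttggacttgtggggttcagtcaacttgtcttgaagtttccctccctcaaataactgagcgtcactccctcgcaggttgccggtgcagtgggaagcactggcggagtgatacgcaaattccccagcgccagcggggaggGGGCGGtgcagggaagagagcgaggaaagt
The Col4a6 window holds 1 ACAANG (as CCTTGT) and 1 GGGCGG (as CCGCCC), and the Col4a5 window 1 CCAAT and 1 GGGCGG.

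Col4a1 and Col4a2, the paired chains of nearly all basement membranes, differed between NDL and Met1. Col4a1 (feature 10576973) stood at 8.98, 9.14 and 8.78 in NDL, 8.08, 8.38 and 8.10 in Met1 and 9.01, 8.55 and 8.60 in SSM2, with NDL 1.72-fold above Met1 (0.78 ± 0.16 log2 units, adjusted p = 0.0112). Col4a2 (feature 10570068) stood at 9.15, 9.29 and 8.63 in NDL, 8.12, 8.33 and 8.04 in Met1 and 8.70, 8.52 and 8.42 in SSM2, with NDL 1.81-fold above Met1 (0.86 ± 0.18 log2 units, adjusted p = 0.0119). For both genes all Met1 arrays lay below all others, and NDL and SSM2 overlapped. The Col4a2 call ended without NDL replicate 1 (adjusted p = 0.0521), and neither gene was called in the other comparisons. Col4a3 and Col4a4, chains of the kidney filter and other specialised membranes, had line means between 5.72 and 6.11 and were not called.

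Of the 6 beaded filament collagens, 2 were lower in NDL than in Met1, and the same 2 were higher in Met1 than in SSM2. Col6a1 (feature 10370210), the alpha 1 chain of type VI, stood at 9.07, 9.06 and 8.75 in NDL, 10.85, 10.83 and 10.68 in Met1 and 9.46, 9.22 and 8.33 in SSM2. The Met1 arrays lay close together and above all others. NDL was 3.54-fold below Met1 (-1.83 ± 0.26 log2 units, adjusted p = 0.00198) and Met1 3.44-fold above SSM2 (1.78 ± 0.26 log2 units, adjusted p = 0.00346), and NDL minus SSM2 was -0.04, 95% interval -0.64 to 0.56 (adjusted p = 0.922).

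Col6a2 (feature 10370180), the alpha 2 chain, stood at 8.65, 8.48 and 8.11 in NDL, 9.45, 9.52 and 9.52 in Met1 and 8.76, 8.36 and 7.99 in SSM2. NDL was 2.12-fold below Met1 (-1.08 ± 0.20 log2 units, adjusted p = 0.00745) and Met1 2.18-fold above SSM2 (1.13 ± 0.20 log2 units, adjusted p = 0.0089), and NDL minus SSM2 was 0.04, 95% interval -0.43 to 0.51 (adjusted p = 0.897). All Met1 arrays lay above all others, and NDL and SSM2 overlapped. These 4 calls of Col6a1 and Col6a2 held under all 20 alternatives. Col6a3, the alpha 3 chain that completes the usual type VI trimer, was not called, and its arrays are given after its values were seen. It stood at 9.47, 9.01 and 8.66 in NDL, 9.15, 9.30 and 9.32 in Met1 and 9.77, 8.91 and 9.02 in SSM2. The lines overlapped, and Met1 minus SSM2 was 0.02, 95% interval -0.57 to 0.62 (adjusted p = 0.977). The difference between chains was not tested. Col6a4, Col6a5 and Col6a6, the later-found chains that can replace alpha 3, had line means between 5.59 and 7.03 and were not called.

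Col6a1 and Col6a2 are neighbours on chromosome 10 and were both called highest in Met1, so the windows upstream of their 5′-most RefSeq starts are shown (250 bases, GRCm38.p6, capitals as above).
Col6a1, chr10:76726045-76726294, minus strand: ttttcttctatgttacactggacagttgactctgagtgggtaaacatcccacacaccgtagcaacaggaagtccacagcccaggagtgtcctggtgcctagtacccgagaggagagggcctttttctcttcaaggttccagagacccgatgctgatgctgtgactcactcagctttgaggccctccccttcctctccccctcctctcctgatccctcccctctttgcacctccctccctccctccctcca
Col6a2, chr10:76623631-76623880, minus strand: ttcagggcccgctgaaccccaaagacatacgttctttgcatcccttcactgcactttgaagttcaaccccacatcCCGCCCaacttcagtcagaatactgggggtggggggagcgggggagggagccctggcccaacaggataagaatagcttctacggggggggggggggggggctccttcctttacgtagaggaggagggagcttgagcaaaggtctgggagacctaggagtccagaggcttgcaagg
The Col6a1 window holds none of the 4 motifs, and the Col6a2 window shown holds 1 GGGCGG (as CCGCCC). The window of the other RefSeq start of Col6a2, not shown, holds 3 GGGCGG and none of the other motifs.

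Among the 4 transmembrane collagens, only Col17a1 was called. Col17a1 (feature 10468344), the hemidesmosome collagen of basal epithelial cells, stood at 6.70, 6.59 and 5.82 in NDL, 6.55, 6.70 and 6.01 in Met1 and 8.38, 8.34 and 7.92 in SSM2. All SSM2 arrays lay above all others. NDL was 3.59-fold below SSM2 (-1.84 ± 0.27 log2 units, adjusted p = 0.00291) and Met1 3.47-fold below SSM2 (-1.79 ± 0.27 log2 units, adjusted p = 0.00386), and both calls held under all 20 alternatives. NDL and Met1 overlapped (log2 difference -0.05, 95% interval -0.67 to 0.57). Basal epithelial markers had list means from 7.39 up to 7.51 in NDL, from 6.95 up to 7.85 in Met1 and from 9.39 up to 9.49 in SSM2 (9 of 10 measured), with 6 of 9 lower in NDL than in SSM2 and 4 of 9 lower in Met1 than in SSM2. These included Krt14 and Krt15, keratins of basal cells, at -4.07 and -4.20 for NDL minus SSM2 and -4.25 and -4.49 for Met1 minus SSM2, and Krt5 (-4.62 for NDL minus SSM2). Trp63 and Lamb3 were also lower in Met1 than in SSM2 (-1.28 and -2.84), and Lamb3, a laminin chain, was the 1 basal marker that was higher in NDL than in Met1 (1.20). Not all members went this way: the integrin subunits Itgb4 and Itga6 were called in no comparison. Itgb4 had means of 9.71 in NDL, 9.49 in Met1 and 9.42 in SSM2, and Itga6 10.64 in NDL, 9.94 in Met1 and 10.38 in SSM2. The part of the basal markers in the Col17a1 result was not tested.

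Col7a1 (feature 10589212), the anchoring fibril collagen that ties the epithelial basement membrane to stroma, stood at 7.83, 7.52 and 7.21 in NDL, 7.05, 7.26 and 6.96 in Met1 and 8.04, 7.93 and 7.72 in SSM2. Met1 was 1.75-fold below SSM2 (-0.81 ± 0.17 log2 units, adjusted p = 0.018), and NDL overlapped both. The call ended without Met1 replicate 1 or 3 or SSM2 replicate 1 or 2 (adjusted p from 0.0531 to 0.0724). The other transmembrane chains Col13a1, Col23a1 and Col25a1 had line means between 5.66 and 6.90 and were not called.

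The 2 multiplexins are collagens of the basement membrane zone that carry sugar chains, and Col15a1 was lowest and Col18a1 highest in Met1. Col15a1 (feature 10504775), found around muscle and small vessels, stood at 7.75, 8.18 and 7.60 in NDL, 6.91, 7.11 and 6.47 in Met1 and 8.66, 8.26 and 7.85 in SSM2. All Met1 arrays lay below all others. NDL was 2.01-fold above Met1 (1.01 ± 0.25 log2 units, adjusted p = 0.0246), and Met1 lay 2.69-fold below SSM2 (-1.43 ± 0.25 log2 units, adjusted p = 0.0076). The NDL to Met1 call ended without NDL replicate 1 or 2 or Met1 replicate 1 or 3 (adjusted p from 0.0639 to 0.0882).

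Col18a1 (feature 10370259), whose end fragment is endostatin, stood at 8.56, 8.19 and 8.15 in NDL, 9.21, 8.998 and 8.72 in Met1 and 8.25, 8.08 and 7.92 in SSM2. Here all Met1 arrays lay above all others. NDL was 1.6-fold below Met1 (-0.68 ± 0.17 log2 units, adjusted p = 0.0243), and Met1 was 1.85-fold above SSM2 (0.89 ± 0.17 log2 units, adjusted p = 0.0107). The NDL to Met1 call ended without NDL replicate 2 or Met1 replicate 1 or 2 (adjusted p from 0.0755 to 0.089), after cyclic loess (-0.58, adjusted p = 0.0663) and after quantile normalisation (-0.59, adjusted p = 0.0625). Endothelial markers, 7 of 7 measured, had list means from 6.66 up to 6.80 in NDL, from 6.67 up to 6.97 in Met1 and from 6.90 up to 7.60 in SSM2, with Emcn and Pecam1 lower in NDL than in SSM2 (-1.34 and -0.79), and their part in the values of Col15a1 and Col18a1 was not tested.

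Of the network collagens, Col8a1 (feature 10440091), a short chain made by vessel walls and injured stroma, was lowest in Met1, at 8.29, 7.69 and 8.73 in NDL, 6.24, 7.24 and 5.64 in Met1 and 9.19, 7.90 and 8.34 in SSM2. The Met1 arrays lay below all others, and NDL and SSM2 overlapped. NDL was 3.64-fold above Met1 (1.86 ± 0.47 log2 units, adjusted p = 0.0256), and Met1 lay 4.29-fold below SSM2 (-2.10 ± 0.47 log2 units, adjusted p = 0.0218). The first call ended without NDL replicate 1 or Met1 replicate 1 or 3 (adjusted p from 0.0825 to 0.0879) and the second without Met1 replicate 1 or 3 or SSM2 replicate 1 (adjusted p from 0.0578 to 0.0829). With array weights the first call ended (adjusted p = 0.111). Col8a2, with line means between 6.48 and 6.86, and the unclassed Col26a1 and Col28a1 were not called.

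**Figure D3:**
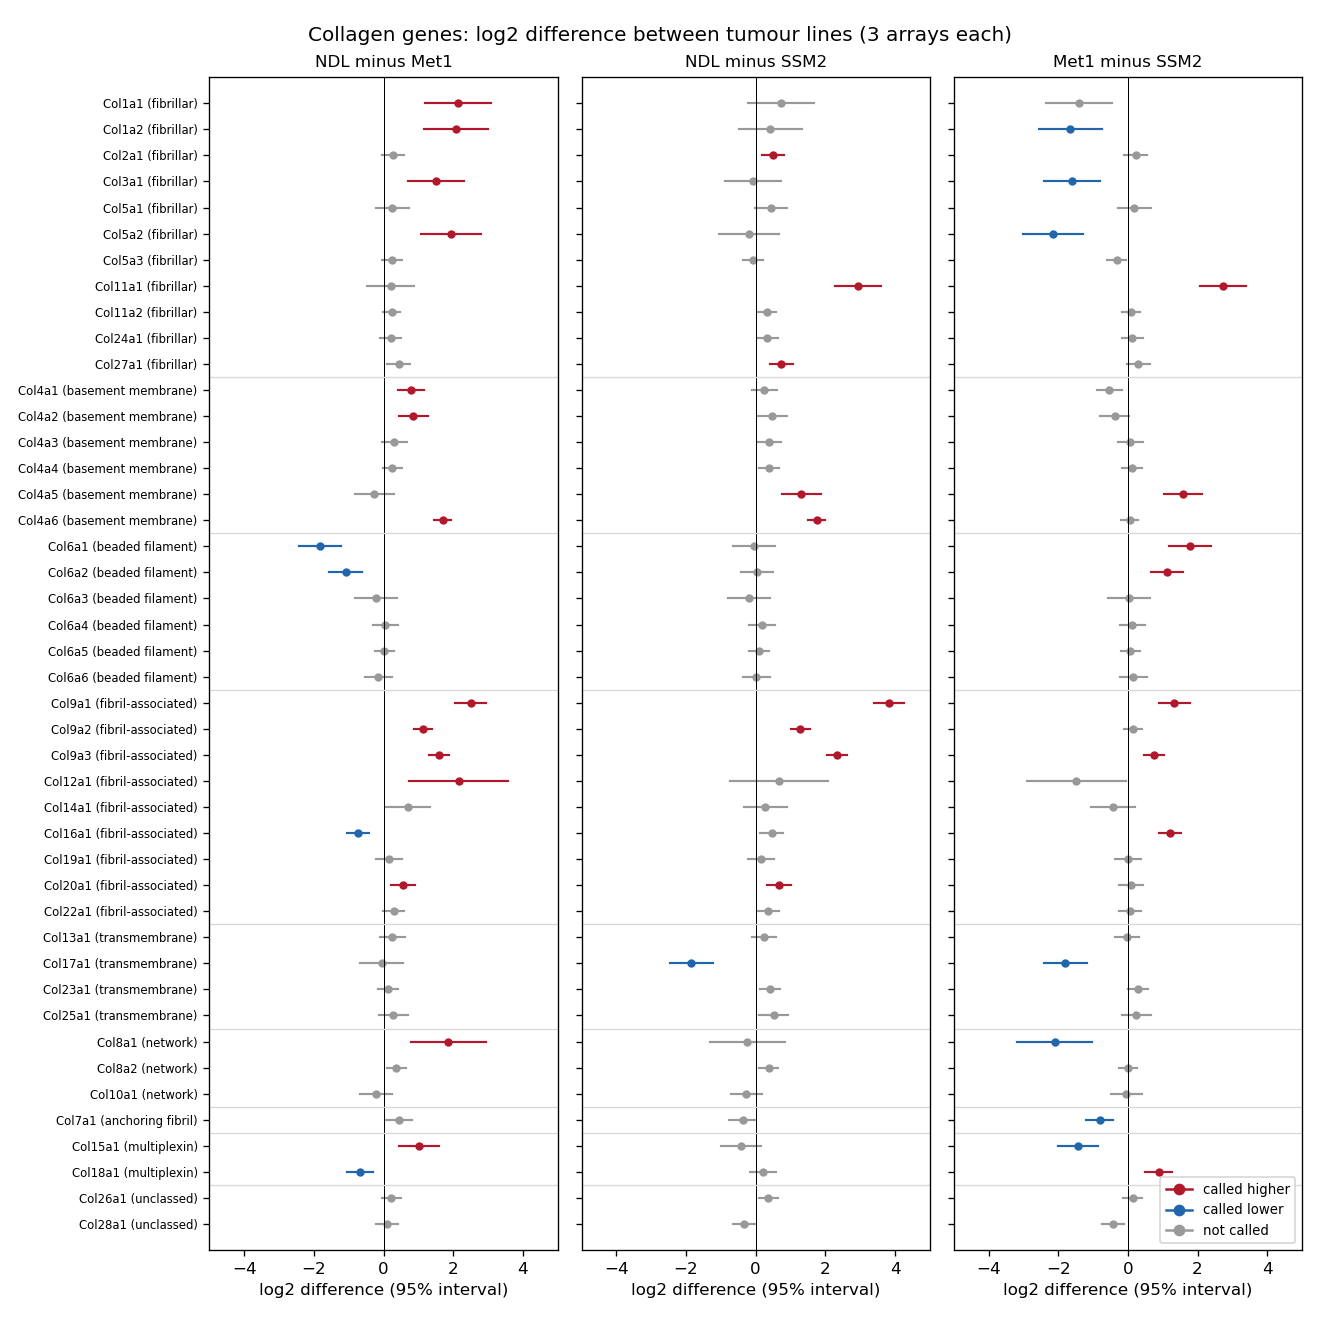
Log2 difference of the 44 collagen genes for NDL minus Met1, NDL minus SSM2 and Met1 minus SSM2, with the model's 95% interval (not adjusted for the number of genes), in the order of their assemblies. Red marks a call higher in the first line, blue a call lower and grey no call at an adjusted p of 0.05; Col9a1 reaches 3.84 for NDL minus SSM2.

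In all, 20 members were called in no comparison: Col5a1, Col5a3, Col11a2, Col24a1, Col4a3, Col4a4, Col6a3 to Col6a6, Col14a1, Col19a1, Col22a1, Col13a1, Col23a1, Col25a1, Col8a2, Col10a1, Col26a1 and Col28a1. Their line means lay between 5.21 and 9.26 and their largest difference was 0.70 on the log2 scale. In 15 of the 20 the NDL mean was the highest, a count for which the share of all genes was not computed. In 17 of the 20 NDL replicate 3 was the lowest NDL array, against 49.2% of all genes. NDL replicates 1 and 2 were the arrays with the lowest upper quartiles, and their part in small rises in NDL such as that of Col20a1 was not tested.

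Among the 5 collagens called lowest in Met1 (Col1a2, Col3a1, Col5a2, Col8a1 and Col15a1), SSM2 replicate 1 was the highest SSM2 array for 5 of 5, against 56.8% of all 44 collagens and 34.9% of all genes. In Met1, replicate 2 was highest for 4 of 5, but also for 5 of 5 collagens called highest in NDL and for 61.4% of all 44, against 27.3% of all genes. Their NDL arrays had no common order. Their mean signal was 9.63, 9.48 and 9.41 in NDL, 7.43, 8.39 and 7.65 in Met1 and 10.21, 9.41 and 9.21 in SSM2. Mural and smooth muscle markers (7 of 7 measured) had list means of 7.13, 7.21 and 6.92 in NDL, 5.85, 6.38 and 5.96 in Met1 and 7.56, 7.15 and 7.16 in SSM2, also lowest in Met1. Among the Met1 arrays, replicate 2 stood highest for the mural list and also for the simple epithelial, basal epithelial and endothelial lists, but not for the fibroblast, adipocyte, skeletal muscle and macrophage lists. Of these, 4 of 7 were higher in NDL than in Met1, Acta2, the actin of smooth muscle (2.70), Tagln (2.42), Cnn1 (0.76) and Cspg4 (0.44). Met1 was lower than SSM2 for Acta2 (-2.93), Tagln (-2.05) and Cspg4 (-0.53). Values in parentheses for genes other than collagens, except where they are line means, are log2 differences from the same limma fit, and each passed the adjusted p of 0.05.

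Of 10 fibroblast markers, all measured, 0 were higher and 2 lower in NDL than in Met1, and 0 higher and 1 lower in NDL than in SSM2. Between Met1 and SSM2, 2 were higher and 1 lower in Met1. Counts in the marker lists are to be read against the shares of all genes called higher and lower. These were 8.88% and 10.2% for NDL minus Met1, 9.35% and 7.52% for NDL minus SSM2, and 7.1% and 4.71% for Met1 minus SSM2. Among 10 genes, counts of 0, 1 or 2 are near such shares. At an unadjusted p under 0.05, too, 0 of the fibroblast markers were higher in NDL than in either line. Their median difference was -0.18 for NDL minus Met1, -0.87 for NDL minus SSM2 and -0.24 for Met1 minus SSM2. Their list mean was 7.11, 7.13 and 7.20 in NDL, 7.35, 7.72 and 7.77 in Met1 and 8.89, 8.24 and 7.40 in SSM2. The list was not uniform: NDL was above Met1 in the means of Lum (6.36 in NDL and 5.25 in Met1), Dcn (8.44 in NDL and 7.92 in Met1), Thy1 (7.55 in NDL and 6.99 in Met1) and Pi16 (5.88 in NDL and 5.48 in Met1), none of them called in that comparison. The called markers were Pdgfra, Dpt and Dcn. Pdgfra, a receptor of resident fibroblasts, was lower in NDL than in Met1 (-2.53, adjusted p = 0.00336) and so was Dpt, which encodes dermatopontin (-3.02, adjusted p = 0.00239). Dcn, the fibril-binding proteoglycan decorin, was lower in NDL (-3.38) and in Met1 (-3.89) than in SSM2, and Pdgfra and Dpt were higher in Met1 than in SSM2 (1.54 and 1.84). Macrophage markers (5 of 5) had list means from 7.62 up to 8.13 in NDL, from 8.76 up to 9.19 in Met1 and from 8.21 up to 9.53 in SSM2, with 4 of 5 lower in NDL than in Met1 (Mrc1 -2.02, Csf1r -1.64, Adgre1 -1.34 and Cd68 -1.18). Cd163 and Mrc1 were lower in NDL than in SSM2 (-2.31 and -2.14), and Met1 was lower than SSM2 for Cd163 (-2.94) and higher for Csf1r (1.56) and Cd68 (1.29). Skeletal muscle markers (6 of 6) ran from 5.48 up to 5.83 in NDL, from 5.55 up to 5.60 in Met1 and from 5.41 up to 5.58 in SSM2, and adipocyte markers (5 of 6) from 5.99 up to 7.09 in NDL, from 5.54 up to 6.30 in Met1 and from 5.66 up to 7.71 in SSM2. The part of cell composition in the collagen values was not tested.

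**Figure D4:**
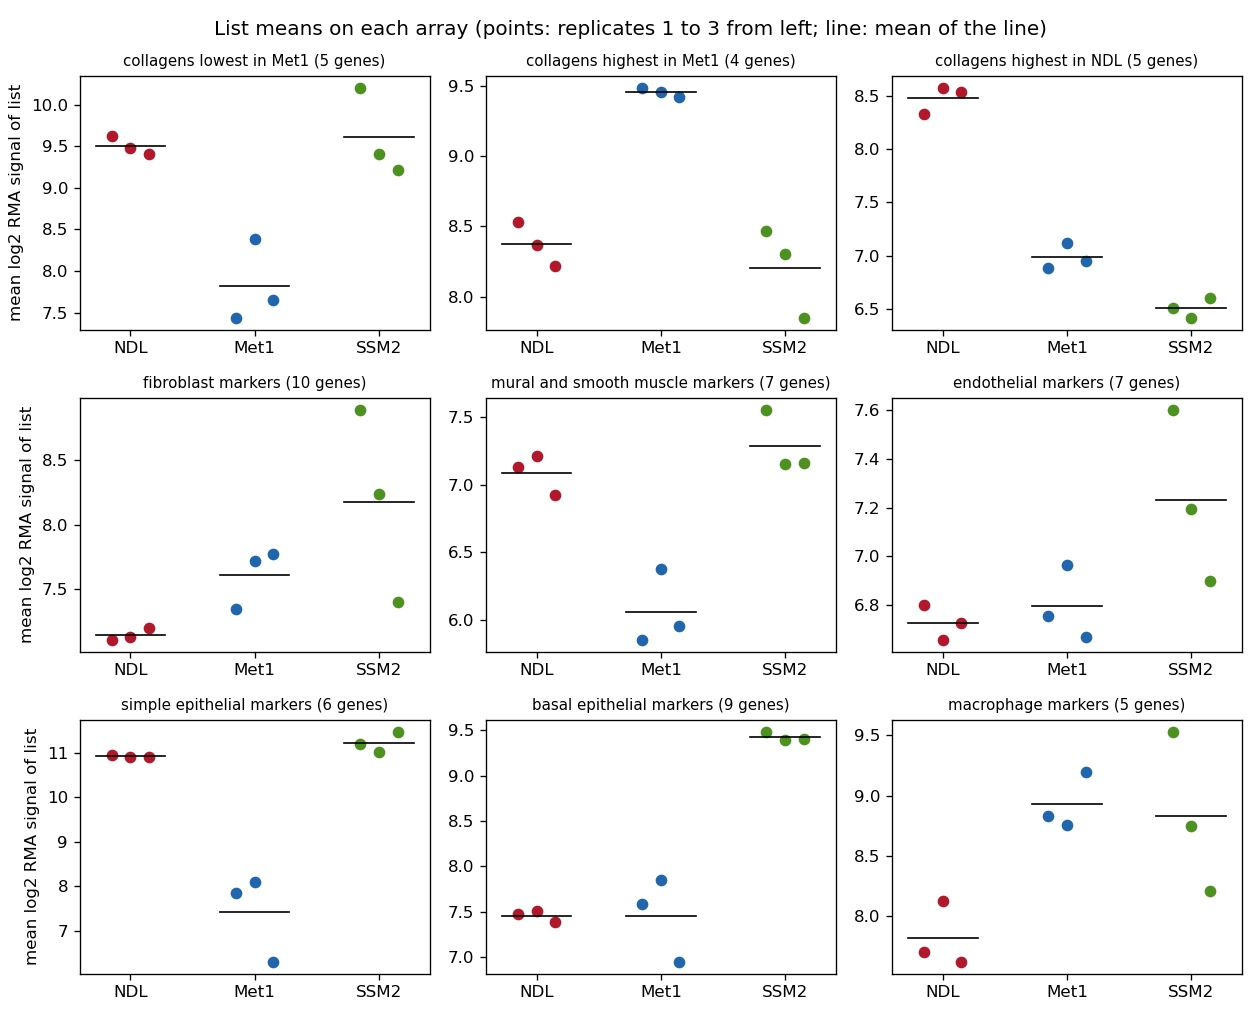
Mean log2 RMA signal of 3 collagen sets, defined by their calls, and 6 marker lists on each array, with NDL, Met1 and SSM2 from left to right, points for replicates 1 to 3 and a line for the mean of the line. The vertical scale differs between panels and does not start at 0; mural and smooth muscle markers are lowest in Met1, as are the collagens chosen for being lowest there.

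Genes that act on collagen outside the chains themselves were counted by list, to be read against the shares of all genes given above: higher and lower calls made up 8.88% and 10.2% for NDL minus Met1, 9.35% and 7.52% for NDL minus SSM2, and 7.1% and 4.71% for Met1 minus SSM2, with medians of 0.06, 0.09 and 0.04. Of 18 measured genes for folding and modifying collagen chains (of 19 listed), 1 was higher and 8 lower in NDL than in Met1, 7 higher and 2 lower in NDL than in SSM2, and 9 higher and 0 lower in Met1 than in SSM2. At an unadjusted p under 0.05, too, 0 of the 18 were lower in Met1 than in SSM2. The median difference of the list was -0.28 for NDL minus Met1, 0.01 for NDL minus SSM2 and 0.60 for Met1 minus SSM2. P4ha2 and P4ha1, catalytic subunits of prolyl 4-hydroxylase, which stabilises the triple helix, were lower in NDL than in Met1 (-2.09 and -1.84), as was Fkbp14, a folding helper (-1.23). P4ha2 was also lower in NDL than in SSM2 (-2.09). P3h2, a prolyl 3-hydroxylase, and the lysyl hydroxylase Plod1 were higher in NDL than in SSM2 (2.74 and 1.69) and in Met1 than in SSM2 (2.45 and 2.64). Plod2, a lysyl hydroxylase of collagen ends, was higher in NDL and in Met1 than in SSM2 (1.61 and 1.82).

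Of 11 measured genes for procollagen cleavage and crosslinking (of 13 listed), 2 were higher and 3 lower in NDL than in Met1, 3 higher and 2 lower in NDL than in SSM2, and 3 higher and 2 lower in Met1 than in SSM2. The medians were 0.14, -0.15 and 0.12 in the same order. Pcolce2, an enhancer of procollagen end cleavage, stood at 5.59, 5.90 and 5.71 in NDL, 9.88, 9.58 and 10.54 in Met1 and 7.54, 7.57 and 6.41 in SSM2. NDL was 19.2-fold below Met1 (-4.27 ± 0.34 log2 units, adjusted p = 0.000126) and also below SSM2 (-1.44), and Met1 was above SSM2 (2.83). Pcolce, the related enhancer, stood at 8.49, 8.71 and 8.66 in NDL, 11.26, 11.27 and 11.34 in Met1 and 10.73, 10.38 and 11.21 in SSM2, and was lower in NDL than in Met1 (-2.67) and SSM2 (-2.15). NDL was thus the lowest line for both enhancers, and it was above Met1 for Col1a1, Col1a2 and Col3a1. Among cleaving proteases, Adamts3 was higher in NDL than in Met1 (1.35) and SSM2 (1.70), and Adamts14 was lower in NDL than in Met1 (-1.18), higher in NDL than in SSM2 (0.53) and higher in Met1 than in SSM2 (1.71). Among lysyl oxidases, which crosslink collagen, Loxl1 was higher in NDL than in Met1 (1.55) and lower in Met1 than in SSM2 (-1.26), Loxl3 was higher in NDL and in Met1 than in SSM2 (1.65 and 1.18), and Loxl4 was lower in Met1 than in SSM2 (-0.77).

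Of 12 collagen-binding matrix proteins, 1 was higher and 2 lower in NDL than in Met1, 0 higher and 2 lower in NDL than in SSM2, and 1 higher and 2 lower in Met1 than in SSM2. Among 12 genes, counts of 1 and 2 for NDL minus Met1 are near the shares of all genes. The medians were 0.58, -0.23 and -0.78 in the same order. Beside Dcn and Dpt, described above, Thbs2, a matricellular thrombospondin, was higher in NDL than in Met1 (2.32) and lower in Met1 than in SSM2 (-1.67), and Fn1, fibronectin, was lower in NDL than in Met1 (-1.76) and SSM2 (-2.38). At an unadjusted p under 0.05, too, 0 of the 12 were higher in NDL than in SSM2.

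Of 9 measured collagen receptors (of 10 listed), 1 was higher and 4 lower in NDL than in Met1, 2 higher and 0 lower in NDL than in SSM2, and 5 higher and 1 lower in Met1 than in SSM2. At an unadjusted p under 0.05, 2 of the 9 were lower in NDL than in SSM2. The medians were -0.68, 0.07 and 0.86 in the same order. Ddr1, the receptor kinase of epithelial cells, stood at means of 8.73 in NDL, 7.27 in Met1 and 8.17 in SSM2, and was higher in NDL than in Met1 (1.46) and SSM2 (0.57) and lower in Met1 than in SSM2 (-0.89). Ddr2, the receptor kinase of mesenchymal cells, ran the other way between NDL and Met1, at means of 6.27 in NDL, 8.14 in Met1 and 6.80 in SSM2 (-1.87 for NDL minus Met1, 1.33 for Met1 minus SSM2). The uptake receptor Mrc2 and the leukocyte inhibitory receptor Lair1 were lower in NDL than in Met1 (-1.96 and -1.93) and higher in Met1 than in SSM2 (2.03 and 2.02). Of the integrin subunits, Itga10 was lower in NDL than in Met1 (-0.58) and higher in Met1 than in SSM2 (0.86). Itga11 was higher in NDL and in Met1 than in SSM2 (0.77 and 0.92).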

How the data were processed

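Total RNA (100 ng per array) was measured on Mouse Gene 1.0 ST arrays, and the log2 values were made by the authors with RMA in oligo 1.40.2, per the submitters' processing notes. RMA equalises the arrays before deposit, so a shift shared by most genes cannot be seen. Groups came from the sample titles. Of 35556 features, 21789 carried 1 symbol in the platform annotation, 1621 several and 12146 none; 21698 of the first matched RefSeq symbols. The brightest feature stood for a gene.

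All 19938 genes were fitted in limma 3.58.1 (R 4.3.3, lmFit and eBayes) with 3 line means over the 9 arrays and Benjamini-Hochberg adjustment per comparison. The fit was tested on simulated data. Every collagen gene is reported, per array where it was called, up to 6 in a class (Col2a1, beyond that limit, and the uncalled Col6a3 were added after their values were seen), and the rest by means or ranges. Other genes are the 3 largest calls per list and comparison, or all where a list had up to 5. Lum, Thy1, Pi16, Itgb4 and Itga6, and further calls of Plod2, Itga10 and Itga11, were added likewise. The members and lists were chosen with earlier results of these data known. Alternatives changed the filter, scaling, variance model, array weights, features and arrays. Upstream sequences came from RefSeq (GRCm38.p6), and figures were drawn with matplotlib 3.10.9.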

Additional observations from a re-analysis of the deposited data

How the results depend on the processing

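Of 43 calls, 23 held under every alternative that tested them (20 for all genes but Col4a6 and Col20a1), and none changed sign. With NDL replicate 3 as the only NDL array, assumed to vary like the other lines, collagens called higher in NDL than in Met1 numbered 5 against 14, those lower 2 against 4, and those higher in NDL than in SSM2 5 against 9. With 1 array left out, the counts ran from 9 to 24 higher and 3 to 4 lower for NDL minus Met1, 7 to 22 higher and 1 to 1 lower for NDL minus SSM2, and 8 to 8 higher and 3 to 9 lower for Met1 minus SSM2. With the replicate block, Met1 minus SSM2 had 4 lower members against 7. Whether the replicate numbers pair samples is not known, since no source says what a number marks. Deviations of same-numbered samples correlated between -0.35 and 0.29. Differently numbered samples were not compared, so these values do not settle it. The block ended 6 of 43 calls. Small differences that were not called changed sign: Col17a1 for NDL minus Met1 was 0.039 after quantile normalisation and ran from -0.26 to 0.22 with 1 array left out (above 0 without NDL replicate 3, Met1 replicate 1 or Met1 replicate 2); Col6a1 for NDL minus SSM2 was 0.038 and ran from -0.38 to 0.19 (above 0 without NDL replicate 3, SSM2 replicate 1 or SSM2 replicate 2); Col6a2 for NDL minus SSM2 was -0.26 with NDL replicate 3 alone and ran from -0.15 to 0.24 (below 0 without NDL replicate 1 or SSM2 replicate 3). Col1a1 for Met1 minus SSM2 passed under the filters at the 25th percentile (adjusted p = 0.0492) and the median (adjusted p = 0.0415), with equal medians (adjusted p = 0.0478) and without Met1 replicate 2. The median filter gave no value for Col4a6 and Col20a1. Apart from the filters, which test fewer genes, and the fits with fewer samples, the cause was not tested. With 3 arrays a line, low signal limits what can be seen of the dimmer chains.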

Other observations

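Some collagen genes lie next to each other in RefSeq order, and their values are set side by side here. Col3a1 and Col5a2 on chromosome 1 were both called lowest in Met1. Col6a2 and Col6a1 on chromosome 10 were both called highest in Met1, as was Col18a1 on the same chromosome, while Col13a1 and Col10a1, also on chromosome 10, were called in no comparison. Col4a1 and Col4a2 on chromosome 8 were both higher in NDL than in Met1. Of Col4a6 and Col4a5 on the X chromosome, the first was called highest in NDL and the second lowest in SSM2. Col4a4 and Col4a3 on chromosome 1, and Col6a6, Col6a5 and Col6a4 on chromosome 9, were called in no comparison. Of Col9a1 and Col19a1 on chromosome 1, the first was called highest in NDL and lowest in SSM2, and Col19a1, a minor fibril-associated chain, was not called and averaged 5.37 ± 0.35 in NDL, 5.22 ± 0.10 in Met1 and 5.21 ± 0.08 in SSM2 (mean ± SD, n = 3).

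The second features of Col6a6 and Col6a5 were dim on all arrays, between 5.02 and 5.06 for Col6a6 and between 4.49 and 5.15 for Col6a5. Over the 44 collagens, the highest Met1 array was replicate 2 for 27 (61.4%, against 27.3% of all genes) and the highest SSM2 array was replicate 1 for 25 (56.8%, against 34.9%). NDL replicate 3 was the lowest NDL array for 30 (68.2%, against 49.2%).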
